A study of Mus musculus with 6 samples.

Results

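The nuclear genes for subunits of respiratory complexes II to V were followed in the livers of 6 mice. A gene was taken when its row was marked protein-coding and its name was Sdha to Sdhd, Cyc1, Cycs, Cox4i1, Cox5a, Cox5b, Cox6a1, Cox6b1, Cox6c, Cox7a2, Cox7b, Cox7c or Cox8a, or began with Uqcr or Atp5. This gave 40 genes of the 54320 in the deposited tables, of which 22058 were protein-coding. Complex II held 4 of them, complex III 9, complex IV 10 and complex V 15. Cycs, the soluble carrier cytochrome c, and Atp5s, a coupling factor that is not a core subunit of ATP synthase, were counted on their own.

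All 6 mice were C57BL/6, had eaten a diet named MCD in the labels for 3 weeks, and were killed at an age of 11 weeks. In 3 of them (HuR flox/flox, here flox) loxP sites flanked part of both copies of Elavl1, which encodes HuR, an RNA-binding protein. The other 3 (HKO) had the same floxed alleles and, in addition, 1 copy of a Cre transgene driven by the albumin promoter (Alb-Cre+/-), which acts in hepatocytes, so other liver cells keep the gene. Bulk liver RNA was sequenced, and the values are FPKM, that is, reads per length of the gene and a size set for each library. In bulk RNA, fewer cells of a type and less RNA per cell cannot be told apart.

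Complex II feeds electrons from succinate into the inner mitochondrial membrane, complex III passes them on to cytochrome c, complex IV hands them to oxygen, and complex V uses the resulting proton gradient to make ATP. All subunits of complex II are nuclear, whereas complexes III, IV and V are built from nuclear and mitochondrially encoded subunits together. Hepatocytes are rich in mitochondria and make high levels of these transcripts.

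Elavl1 (chr8:4285382-4325413, minus strand, GRCm38.p6) stood at 3.51, 2.36 and 2.99 FPKM in flox 1 to 3 and at 5.77, 4.28 and 4.91 FPKM in HKO 1 to 3. Every library labelled HKO was thus above every flox library, which goes against the label, so the groups are called by their labels here. The log2 fold change was 0.67 (SE 0.23), with an adjusted p of 0.208 by limma with Benjamini-Hochberg adjustment. It was 0.32 after removal of the trend with gene length and -0.02 after removal of trends with gene length and GC content. With quantile normalization it was 0.59, and scaled by the reads assigned to genes it was 0.94. Values per gene do not show the deleted exons apart. Reads assigned to genes numbered 16769082 to 20633215 per library, and a value of the 40 genes rested on 110 to 31705 of them. The flox 2 library had reads on 16608 genes, against 19920 to 22067 in the other 5. Mitochondrial reads made up 2.26% of that library and 4.34% to 4.69% of the others. Summed red blood cell markers were 788 FPKM in flox 2 and 214 to 347 FPKM in the others. Summed T, B and NK cell markers were 11.5 FPKM against 1.53 to 6.16 FPKM, and muscle markers, all near the detection limit, 5.29 against 0.0936 to 0.453 FPKM. Summed stellate cell markers, 107 FPKM in flox 2, lay within the range of the others (90.7 to 118 FPKM). Hepatocyte markers were high in every library, 46788 to 63583 FPKM summed over 11 genes. Summed neutrophil markers were 24.5 to 53.5 FPKM in flox and 4.30 to 6.13 FPKM in HKO, and summed macrophage markers 675 to 1081 against 379 to 562 FPKM. Summed cholangiocyte markers were 40.8 to 66.8 FPKM in flox and 100.3 to 244 FPKM in HKO. Genes of pancreatic digestive enzymes were also much higher in HKO, with log2 fold changes of 7.13 for Ctrb1, 6.55 for Try4 and 4.75 for Cpa1. These were named after their values were seen, and their link to the cholangiocyte markers was not tested. The part of these cell markers and enzyme genes in the results below was not tested.

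Most of the 40 genes had lower values in the libraries labelled HKO, and the size of that difference depended on how the libraries were scaled. It also varied among the complexes, whose differences were not tested. In the deposited values, 35 of the 40 had a negative log2 fold change (HKO minus flox), against 50.1% of the 13787 genes tested, whose mean was 0.5 FPKM or more, a limit that all 40 reached. For 28 genes all 3 HKO libraries lay below all 3 flox libraries, and for 0 all lay above, where 16.7% of all tested genes were lower without overlap. The median log2 fold change was -0.61, against -0.002 for all tested genes. The 40 genes were far more abundant than most tested genes, with a median of 125 FPKM against 3.50 FPKM in flox 1. Shares and medians of all tested genes, here and below, were not matched for level. With the limit raised to 2 FPKM, the median log2 fold change of all tested genes was -0.08. The part of level in the difference was not tested. By complex the medians were -0.18 for complex II, -0.70 for complex III, -0.71 for complex IV and -0.57 for complex V. No single gene passed the test: limma called 0 of the 40 at an adjusted p under 0.05, limma-voom on the recovered reads also called 0, and 2 of all tested genes were called (0.0145%), 1 in each direction (0.00725% each). At an unadjusted p under 0.05, 21 of the 40 were lower and 0 higher, against 10.8% and 10.1% of all tested genes. The smallest adjusted p among the 40 was 0.173, for Sdhb. With 3 libraries a group the smallest two-sided exact permutation p for a single gene is 0.1.

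**Figure D1:**
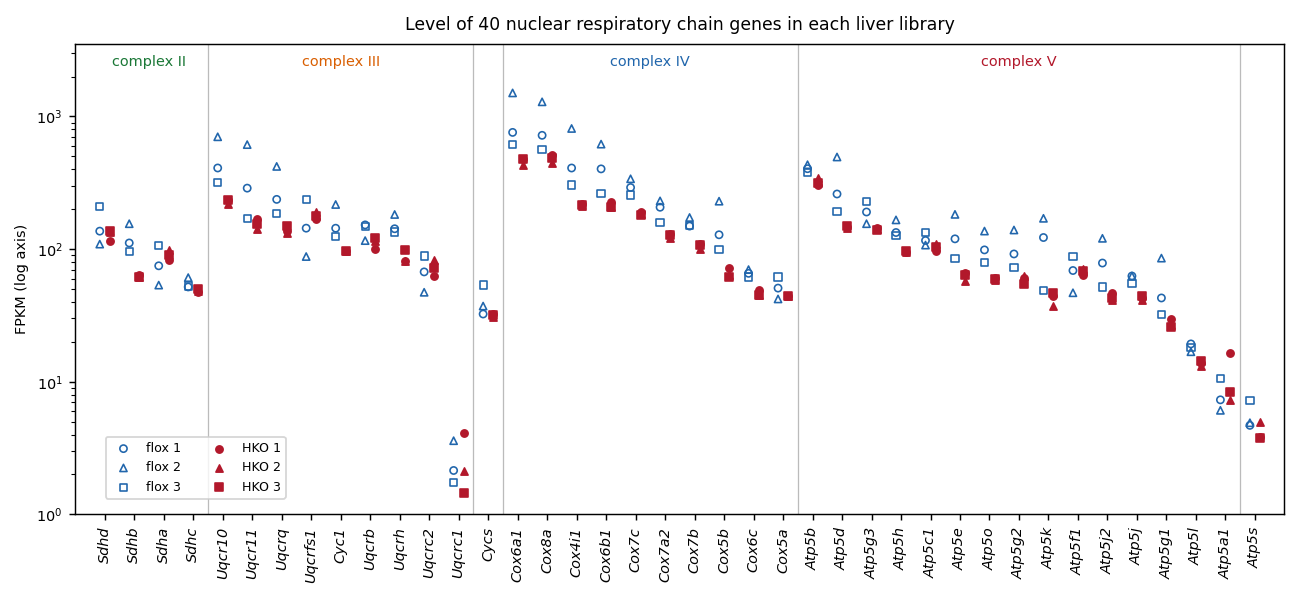
Level of each of the 40 genes in FPKM (log axis) in each of the 6 libraries, ordered by complex and by mean level. Open blue symbols are flox libraries and filled red symbols HKO libraries. The flox symbols are spread widely with flox 2 often on top, the HKO symbols lie close together, and in 28 genes the HKO symbols are all below the flox symbols.

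Scaling changed these counts. The FPKM values carry a library size that differs from the reads assigned to genes: the sizes implied were 1.53e+07 to 1.85e+07 reads in flox and 2.01e+07 to 2.18e+07 reads in HKO. They were below the reads assigned to genes in flox 2 (1.61e+07 against 18040015) and flox 3 (1.53e+07 against 18119468), and above them in the other libraries. Why they differ was not tested. Scaled instead by the reads assigned to genes, the 40 had a median log2 fold change of -0.31 beside 0.24 for all tested genes. On that scale only Sdhb and Uqcrh were lower without overlap (5.29% of all tested genes were) and Sdha was higher without overlap (29.1% of all), and 0 of the 40 were lower at an unadjusted p under 0.05 (3.07% of all). As a share of all reads, the 40 genes together took 1.09%, 1.29% and 0.843% in flox 1 to 3 and 0.908%, 0.862% and 0.811% in HKO 1 to 3. Counting error was small beside this (95% Wilson intervals within 0.00523 percentage points of each share), and the share in flox 3 lay within the HKO range. After quantile normalization the median was -0.15 and 5 genes were lower without overlap (14.7% of all): Sdhb, Uqcrh, Cox5b, Cox4i1 and Atp5o. Sdha and Sdhc were then higher without overlap (15.4% of all), so Sdhc, lower without overlap in the deposited values, changed sides. The genes named in these counts were chosen by the counts, after their values were seen.

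The promoters of 6 genes are shown here, chosen by the results within each complex: Sdhb, Uqcrh, Cox5b and Atp5e had the smallest p in complexes II, III, IV and V, and Sdha and Uqcrfs1 the most positive fold changes in complexes II and III. Each covers 300 bases around the annotated start, 5′ to 3′ on the gene's strand, taken from RefSeq on GRCm38.p6. The windows are chr4:140961021-140961320 (plus strand) for Sdhb, chr13:74350191-74350490 (minus) for Sdha, chr4:116075021-116075320 (minus) for Uqcrh, chr13:30545267-30545566 (minus) for Uqcrfs1, chr1:36691237-36691536 (plus) for Cox5b and chr2:174464052-174464351 (minus) for Atp5e. Capitals mark exact matches, on either strand, to motifs of factors known to act on respiratory genes: GCGCANGCG for NRF1, CCGGAAG for GABPA, AANATGGCG for YY1 and TCAAGGTCA for ERR.
Sdhb: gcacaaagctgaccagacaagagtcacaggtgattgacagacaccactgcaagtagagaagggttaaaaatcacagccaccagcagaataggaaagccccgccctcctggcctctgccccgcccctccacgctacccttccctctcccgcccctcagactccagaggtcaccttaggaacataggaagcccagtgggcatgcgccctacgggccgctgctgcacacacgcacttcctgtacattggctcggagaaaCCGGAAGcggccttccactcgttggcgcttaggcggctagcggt
Sdha: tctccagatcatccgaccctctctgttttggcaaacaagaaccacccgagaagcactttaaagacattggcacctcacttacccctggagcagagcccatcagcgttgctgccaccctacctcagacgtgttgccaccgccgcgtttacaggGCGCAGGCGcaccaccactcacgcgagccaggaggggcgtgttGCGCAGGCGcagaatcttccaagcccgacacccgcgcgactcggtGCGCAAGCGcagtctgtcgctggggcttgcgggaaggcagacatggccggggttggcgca
Uqcrh: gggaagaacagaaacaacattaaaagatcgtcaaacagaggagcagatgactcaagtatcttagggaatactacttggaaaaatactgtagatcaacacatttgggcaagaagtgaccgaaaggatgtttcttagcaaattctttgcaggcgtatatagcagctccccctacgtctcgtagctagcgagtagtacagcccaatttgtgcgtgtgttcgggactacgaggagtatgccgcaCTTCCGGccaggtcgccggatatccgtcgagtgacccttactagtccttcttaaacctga
Uqcrfs1: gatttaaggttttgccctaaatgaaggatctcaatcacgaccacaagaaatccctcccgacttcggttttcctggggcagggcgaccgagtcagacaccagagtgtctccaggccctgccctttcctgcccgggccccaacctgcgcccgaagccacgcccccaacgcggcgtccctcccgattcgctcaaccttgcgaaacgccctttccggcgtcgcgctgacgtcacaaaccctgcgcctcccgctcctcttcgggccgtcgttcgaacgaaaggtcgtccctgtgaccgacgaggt
Cox5b: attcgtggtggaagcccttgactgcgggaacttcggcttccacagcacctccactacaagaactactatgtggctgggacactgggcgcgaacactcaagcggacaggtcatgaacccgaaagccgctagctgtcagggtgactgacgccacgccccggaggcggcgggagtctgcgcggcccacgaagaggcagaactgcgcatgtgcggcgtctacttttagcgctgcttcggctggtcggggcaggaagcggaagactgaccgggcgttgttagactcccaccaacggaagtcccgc
Atp5e: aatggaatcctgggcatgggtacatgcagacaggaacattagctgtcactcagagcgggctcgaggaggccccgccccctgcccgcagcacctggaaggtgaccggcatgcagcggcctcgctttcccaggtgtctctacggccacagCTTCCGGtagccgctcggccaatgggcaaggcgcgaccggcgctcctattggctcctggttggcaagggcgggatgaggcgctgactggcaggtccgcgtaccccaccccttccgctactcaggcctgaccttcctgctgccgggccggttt

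Sdhb, Uqcrh and Atp5e each held a GABPA match (on the minus strand of the window in Uqcrh and Atp5e), Sdha held 3 NRF1 matches, and Uqcrfs1 and Cox5b held none of the motifs searched. Of the 40 genes, 32 had a promoter in the RefSeq table, and Atp5a1, Cox4i1, Cox6c, Cyc1, Sdhc, Uqcrb, Uqcrc2 and Uqcrq did not. The NRF1 motif was in 13 of the 32 (40.6%), against 15% of the promoters of 9125 tested coding genes. For GABPA the count was 12 (37.5%, against 20%), for YY1 3 (9.38%, against 6.05%) and for ERR 2 (6.25%, against 0.373%). A match describes the letters in the window and is not a measured binding site.

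Among the subunits of complex II, the iron-sulfur subunit stood apart from the others. Sdhb, which carries the iron-sulfur clusters that pass electrons to ubiquinone (chr4:140961203-140979193, plus strand), was at 111, 155 and 95.5 FPKM in flox 1 to 3 and at 63.9, 61.4 and 61.7 FPKM in HKO 1 to 3. The groups did not overlap, and the HKO libraries lay close together. For Sdhb the log2 fold change was -0.92 (SE 0.24, adjusted p 0.173 by limma), -0.73 after removal of the length trend and -0.62 when scaled by total reads. Sdha, the flavoprotein that oxidizes succinate, was at 74.8, 53.5 and 107 FPKM in flox and at 83.0, 97.7 and 89.8 FPKM in HKO. Its HKO libraries lay inside the flox range, with flox 2 lowest and flox 3 highest of the 6. The log2 fold change of Sdha was 0.25 (SE 0.29). Sdhc, a membrane anchor that binds heme, was at 51.9, 61.0 and 52.6 FPKM in flox and at 47.3, 48.4 and 49.9 FPKM in HKO. Its groups did not overlap, yet the difference was small, -0.18 on the log2 scale (SE 0.19), and it turned to 0.12 when scaled by total reads. Sdhd, the other anchor and the most abundant per length, was at 137, 109 and 211 FPKM in flox and at 116, 135 and 137 FPKM in HKO. The groups overlapped, and the log2 fold change of -0.18 (SE 0.29) turned to 0.09 after removal of the length trend. For complex II as a whole, 2 of 4 genes were lower without overlap (16.7% of all), and the median became -0.01 after removal of the length trend.

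Because both genes are read in the same library, the ratio of Sdhb to Sdha is free of any scaling of whole libraries. A ratio is not free of library trends with gene length or GC content, here or in the ratios below. Sdhb has 2239 bases and 54.9% GC, and Sdha 4126 bases and 49.8% GC. The ratio was 1.49, 2.90 and 0.894 in flox 1 to 3 and 0.770, 0.629 and 0.687 in HKO 1 to 3. The groups did not overlap, and the exact permutation p (two-sided) was 0.1, which no single ratio can go below here. This ratio and the others below were picked after the values were seen, 8 in all, and none can reach 0.05. Adjusted over the 8 by Benjamini-Hochberg, the smallest exact permutation p was 0.267.

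In the deposited values of complex III, most small subunits and cytochrome c1 were lower in HKO, and the Rieske protein and core protein 2 were not. Uqcrh, the acidic hinge protein that helps dock cytochrome c (chr4:116066965-116075071, minus strand), was at 142, 182 and 135 FPKM in flox and at 81.8, 80.8 and 97.7 FPKM in HKO. The groups did not overlap, and the log2 fold change was -0.81 (SE 0.22, adjusted p 0.176 by limma). Uqcr10, a small membrane subunit and the most abundant of complex III per length, was at 409, 703 and 318 FPKM in flox and at 235, 219 and 234 FPKM in HKO. This gave -0.97 (SE 0.32) on the log2 scale, with flox 2 far above the other flox libraries. Uqcrq, the small subunit next to cytochrome b, was at 237, 420.2 and 185 FPKM in flox and at 137, 132 and 148 FPKM in HKO. The difference was -0.92 on the log2 scale (SE 0.33). Uqcr11, another small membrane subunit, was at 288, 614 and 170.4 FPKM in flox and at 170.1, 142 and 153 FPKM in HKO. Here the groups failed to overlap only by the gap between flox 3 and HKO 1, and the log2 fold change of -1.01 had an SE of 0.46.

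The remaining genes of complex III were named after their values were seen. Cyc1, the heme-bearing cytochrome c1, was at 144, 217 and 124 FPKM in flox and at 96.2, 96.0 and 96.7 FPKM in HKO, without overlap. Its log2 fold change was -0.70 (SE 0.26). With 62.3% GC, it stood at -0.08 after removal of the trends with length and GC content, and the groups then overlapped. Uqcrfs1, the Rieske iron-sulfur protein (chr13:30540308-30545362, minus strand), was at 144, 87.9 and 235 FPKM in flox and at 169.8, 189.9 and 176 FPKM in HKO. Its HKO libraries lay inside the flox range, and the order of the flox libraries was the reverse of that of Uqcr10. The log2 fold change of Uqcrfs1 was 0.31 (SE 0.37), and that of Uqcrc2, a core protein, 0.13 (SE 0.28). Uqcrb, a small subunit that takes part in ubiquinone binding, overlapped between groups with a log2 fold change of -0.30 (SE 0.21). Uqcrc1, the other core protein, was listed at 1.45 to 4.11 FPKM over the 6 libraries, far below its partner Uqcrc2 at 47.3 to 88.7 FPKM per length. The ratio of Uqcrh to Uqcrfs1 was 0.990, 2.08 and 0.573 in flox and 0.482, 0.426 and 0.554 in HKO, without overlap (exact permutation p of 0.1). That of Uqcr10 to Uqcrc2 was 6.08, 14.9 and 3.58 in flox and 3.76, 2.64 and 3.26 in HKO. There the groups overlapped, flox 3 lying below HKO 1 (exact permutation p of 0.2).

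Cycs, the mobile carrier between complexes III and IV, was at 32.4, 37.2 and 53.6 FPKM in flox and at 32.5, 31.0 and 31.8 FPKM in HKO. The value of flox 1 fell between those of HKO 1 and HKO 3, so the groups overlapped. The log2 fold change was -0.33 (SE 0.24, adjusted p 0.425 by limma), and it was -0.04 when scaled by total reads.

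All 10 genes of complex IV had negative fold changes, from -1.12 to -0.20, and 9 of the 10 were lower in HKO without overlap (16.7% of all tested genes). Cox5b, a matrix-side subunit that binds zinc (chr1:36691449-36693681, plus strand), was at 128, 229.8 and 99.2 FPKM in flox and at 72.0, 63.4 and 62.0 FPKM in HKO. The groups did not overlap, at a log2 fold change of -1.12 (SE 0.33, adjusted p 0.188 by limma). Cox7c, a small membrane-spanning subunit, was at 291, 339 and 256 FPKM in flox and at 190.0, 183 and 182 FPKM in HKO. Here the log2 fold change of -0.67 (SE 0.21) rested less on flox 2 than that of Cox5b did, since the flox libraries were closer together. Cox7b, on the X chromosome, was at 149, 173 and 150.0 FPKM in flox and at 109, 99.4 and 107 FPKM in HKO, with a log2 fold change of -0.58 (SE 0.19). Cox6a1, the ubiquitous form of subunit VIa, was the most abundant of the 40 per length, at 759, 1506 and 617 FPKM in flox and at 475, 434 and 475 FPKM in HKO. Again flox 2 was far above the rest, and the log2 fold change was -0.95 (SE 0.36). Cox8a, the ubiquitous form of subunit VIII, was at 721, 1290 and 565 FPKM in flox and at 512, 444 and 484 FPKM in HKO. The gap between flox 3 and HKO 1 was small against the flox spread, and the log2 fold change was -0.75 (SE 0.34).

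The most negative values of complex IV were those of Cox5b and of Cox4i1, the subunit through which ATP is known to inhibit the enzyme. Cox4i1 was at 409, 812 and 305 FPKM in flox and at 218, 211 and 216 FPKM in HKO, a log2 fold change of -1.11 (SE 0.37). The exception among the 10 was Cox5a, the partner of Cox4i1 in assembly, at 50.8, 42.1 and 61.5 FPKM in flox and at 43.9, 44.2 and 44.1 FPKM in HKO. Its lowest value was in flox 2, and its log2 fold change was -0.20 (SE 0.21), 0.00 after removal of the length trend and 0.09 when scaled by total reads. The ratio of Cox5b to Cox5a was 2.52, 5.46 and 1.61 in flox and 1.64, 1.43 and 1.41 in HKO. Here the groups overlapped, flox 3 lying below HKO 1 (exact permutation p of 0.2). Cox4i1 and Cox5a were named after their values were seen.

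In complex V, 13 of 15 genes had negative fold changes (50.1% of all tested genes) and 12 were lower in HKO without overlap (16.7% of all). Genes of the central stalk of the catalytic head differed among themselves. Atp5e, the epsilon subunit (chr2:174461072-174464105, minus strand), was at 119.5, 183 and 85.1 FPKM in flox and at 66.5, 57.2 and 63.9 FPKM in HKO. All HKO libraries were below all flox libraries, with a log2 fold change of -0.97 (SE 0.31, adjusted p 0.198 by limma). Atp5d, the delta subunit, was at 260.4, 495 and 191 FPKM in flox and at 147, 144 and 149 FPKM in HKO, a log2 fold change of -0.99 (SE 0.36). Atp5c1, the gamma subunit with which both assemble, overlapped between groups, with a log2 fold change of -0.20 (SE 0.20). The ratio of Atp5d to Atp5c1 was 2.24, 4.62 and 1.42 in flox and 1.51, 1.32 and 1.43 in HKO, so flox 3 lay among the HKO libraries (exact permutation p of 0.3).

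Atp5b, the catalytic beta subunit (chr10:128083273-128090391, plus strand), had the highest level per length of complex V, at 404, 433 and 379 FPKM in flox and at 304, 341 and 317 FPKM in HKO. The groups did not overlap in the deposited values. The log2 fold change of Atp5b was -0.34 (SE 0.20), and it was -0.04 when scaled by total reads. Atp5a1, the alpha subunit that alternates with beta in the ring, was listed at only 6.08 to 16.4 FPKM, with HKO 1 highest and a log2 fold change of 0.34 (SE 0.36). Atp5a1 and Uqcrc1 were the only members of complexes II to V with a mean below that of Atp5l, although each is present in its complex in equal number with an abundant partner. The values of both rested on 110 to 1029 reads per library. Why these rows are low was not tested, and genes that share sequence with copies elsewhere in the genome are uncertain here, since how reads with several matches were treated is not given in the sources used here.

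The peripheral stalk was mixed. Atp5o, the subunit that confers sensitivity to oligomycin, was at 98.7, 137 and 78.8 FPKM in flox and at 60.8, 58.8 and 59.1 FPKM in HKO, without overlap. Its log2 fold change was -0.77 (SE 0.25), but 35.6% of its exonic bases in the GENCODE M21 annotation lie opposite exons of antisense genes, and whether reads were counted by strand is not given in the sources used here. Atp5h, subunit d, was at 133, 166 and 127 FPKM in flox and at 94.9, 94.8 and 96.0 FPKM in HKO. They gave a log2 fold change of -0.57 (SE 0.20), from flox libraries that lay closer together than those of Atp5o. Atp5f1, subunit b of the same stalk, was at 69.0, 46.8 and 87.7 FPKM in flox and at 64.0, 71.1 and 68.5 FPKM in HKO, with a log2 fold change of 0.05 (SE 0.27). Atp5f1, Atp5a1 and the genes of the next paragraph were named after their values were seen.

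The c subunit of the membrane ring is encoded by 3 genes whose products are processed to the same mature peptide. Atp5g3 was the most abundant of them per length, at 191, 155 and 227 FPKM in flox and at 144, 141 and 139.9 FPKM in HKO. Atp5g2 was at 91.9, 139 and 72.2 FPKM in flox and at 60.4, 62.4 and 55.0 FPKM in HKO. Atp5g1 was at 42.8, 85.5 and 32.2 FPKM in flox and at 29.9, 26.6 and 25.9 FPKM in HKO. All 3 were lower in HKO without overlap, but flox 2 was the lowest flox library for Atp5g3 and the highest for the other two. Accordingly, the ratio of Atp5g2 to Atp5g3 was 0.483, 0.897 and 0.318 in flox and 0.421, 0.443 and 0.393 in HKO, with overlapping groups (exact permutation p of 0.7). That of Atp5g1 to Atp5g3 was 0.225, 0.550 and 0.142 in flox and 0.208, 0.188 and 0.185 in HKO. Those groups overlapped as well (exact permutation p of 0.7). Per length, the order of the 3 genes was the same in all 6 libraries, but it depended on the lengths used. In reads not divided by length, Atp5g1 (4912 bases) was above Atp5g2 (1675 bases) in all 6, with 3895 against 2852 in flox 1. In flox 2 it was also above Atp5g3 (2181 bases), with 6761 reads against 5455. Atp5k, subunit e at the dimer interface, had the most negative fold change of the 40, -1.23 (SE 0.46), being at 122, 171 and 48.7 FPKM in flox and at 44.4, 37.5 and 46.3 FPKM in HKO. Its flox 3 value was close to the HKO libraries. Atp5s was at 4.69, 4.91 and 7.20 FPKM in flox and at 3.84, 4.98 and 3.75 FPKM in HKO, with overlap and a log2 fold change of -0.37 (SE 0.24).

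**Figure D2:**
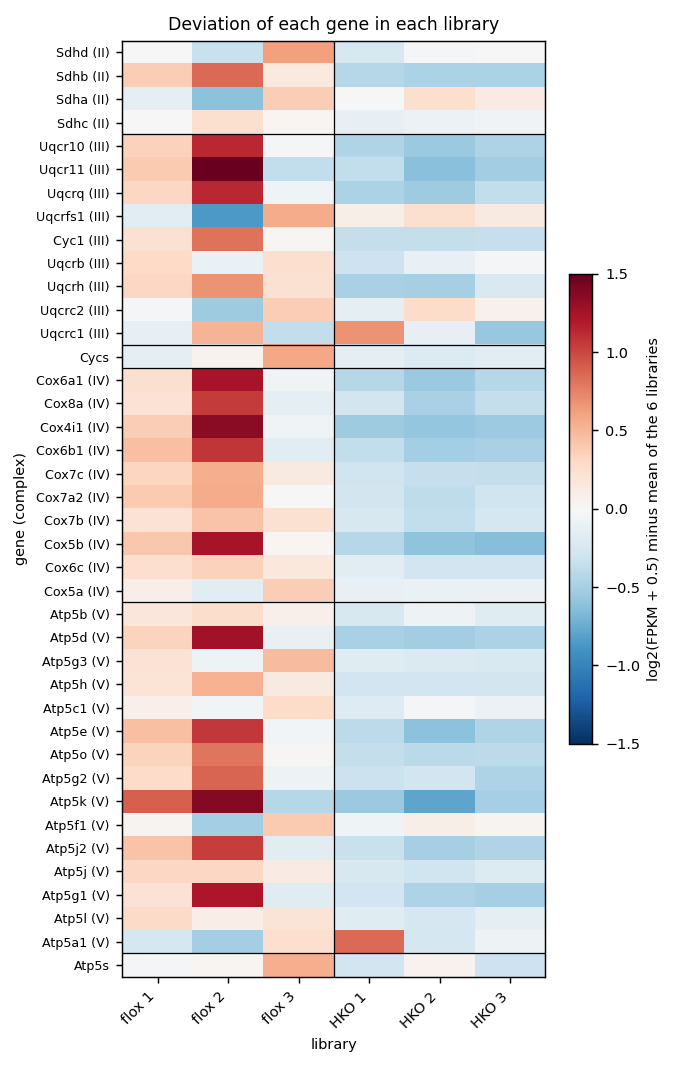
Deviation of each gene's log2(FPKM + 0.5) from its mean over the 6 libraries, with genes in rows by complex and libraries in columns. Red is above and blue below the gene's mean. The flox 2 column is red for most rows and deeper blue for Sdha, Sdhd, Uqcrfs1, Uqcrc2, Atp5f1 and Atp5a1, where flox 3 is red, while the HKO columns are pale blue in most rows.

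The flox libraries were spread far more widely than the HKO libraries. Over the 40 genes the median coefficient of variation was 30.2% among flox libraries and 5.60% among HKO libraries, and it was larger among flox for 38 of the 40. The same held for 12262 of all 13787 tested genes. Within flox, 27 of the 40 were highest in flox 2 (5288 of all 13787 were), and their median log2 fold change was -0.81. Another 11 were highest in flox 3 (6154 of all), with a median log2 fold change of -0.18, and these included every gene with a positive fold change. This split uses flox values that also enter the fold change. Highest in flox 2 were also 32 of 37 complex I subunits, 79 of 83 cytosolic and 60 of 76 mitochondrial ribosomal protein genes tested. Across the 40 genes the log2 fold change had a Pearson r of -0.89 (Spearman rho -0.89) with the log2 ratio of flox 2 to flox 3, a description in which both measures share these libraries. Without flox 2 the median over the 40 was -0.46, and without flox 3 it was -0.70. Leaving out flox 3 brought 24 of the 40 past an adjusted p of 0.05 in limma, all lower in HKO, but 19.4% of all tested genes then passed as lower and 21.0% as higher. With the length trend removed as well, 16 were lower and 1 higher, against 17.2% and 16.2% of all.

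GC content moved with the split among the flox libraries. The 27 genes highest in flox 2 had a median transcript GC of 54.1%, and the 11 highest in flox 3 one of 49.0%. Across the 40 the log2 ratio of flox 2 to flox 3 had a Pearson r of 0.66 with GC (Spearman rho 0.71), and the log2 fold change between groups one of -0.48 (rho -0.59). Uqcr11 and Atp5d, at 58.9% and 61.1% GC, stood far higher in flox 2 than in flox 3, and Atp5f1, at 44.6%, stood lower. Uqcrfs1, at 48.6%, had a more negative log2 ratio of flox 2 to flox 3 than Cox7b, at 42.0%. Over all tested genes, deviations from the mean correlated with GC at 0.54 in flox 2, 0.33 in flox 1 and -0.22 in flox 3, and at -0.42 to -0.31 in the HKO libraries. These points share libraries, and the part of GC in the group difference was not separated from that of genotype.

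**Figure D3:**
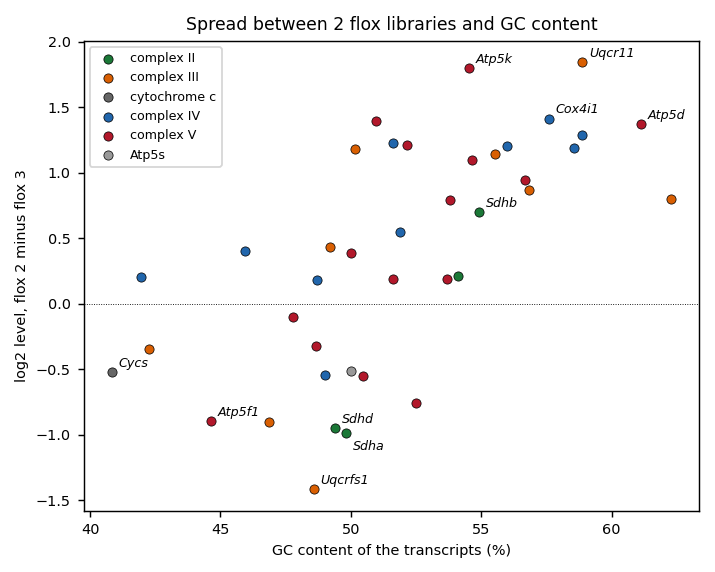
The log2 level in flox 2 minus that in flox 3 for each of the 40 genes, against the GC content of its transcripts in percent. Each point is a gene, coloured by complex, and 10 genes are named. Points rise from left to right (Pearson r 0.66), with Cycs and Uqcrfs1 below 0 and Uqcr11 and Atp5k near the top.

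The fold change varied with gene length. The 40 genes had a median length of 1918 bases in the tables, against 3561 for all tested genes. The 20 genes up to that length had a median log2 fold change of -0.78 and the 20 longer ones -0.37. Over the 40 the log2 fold change had a Pearson r of 0.48 with log2 length (Spearman rho 0.47). In all tested genes, too, the deviation of flox 2 decreased with length, with a slope of -0.14 per doubling, and that of flox 1 with a slope of -0.04, where flox 3 had a slope of 0.05 and the HKO libraries had slopes of 0.04 to 0.05. When each library's trend with length was removed, the median of the 40 was -0.44, against -0.03 for all tested genes, and 32 stayed negative. After this step 25 of the 40 were lower in HKO without overlap (16.5% of all), 17 were lower at an unadjusted p under 0.05 (10.4% of all), and 0 passed after adjustment in limma. Complex II again stood nearest to 0, with medians of -0.01 for complex II, -0.50 for complex III, -0.48 for complex IV and -0.47 for complex V. Removing a GC trend as well, a choice made after the values were seen, left a median of -0.33, with 33 negative and 26 lower without overlap (15.5% of all). Single genes moved both ways. Cyc1, Cox8a and Atp5g2 then stood at -0.08, -0.08 and -0.11, with overlapping groups. Cox7b went from -0.58 to -0.76 and Cycs from -0.33 to -0.80. These genes were named after their values were seen.

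**Figure D4:**
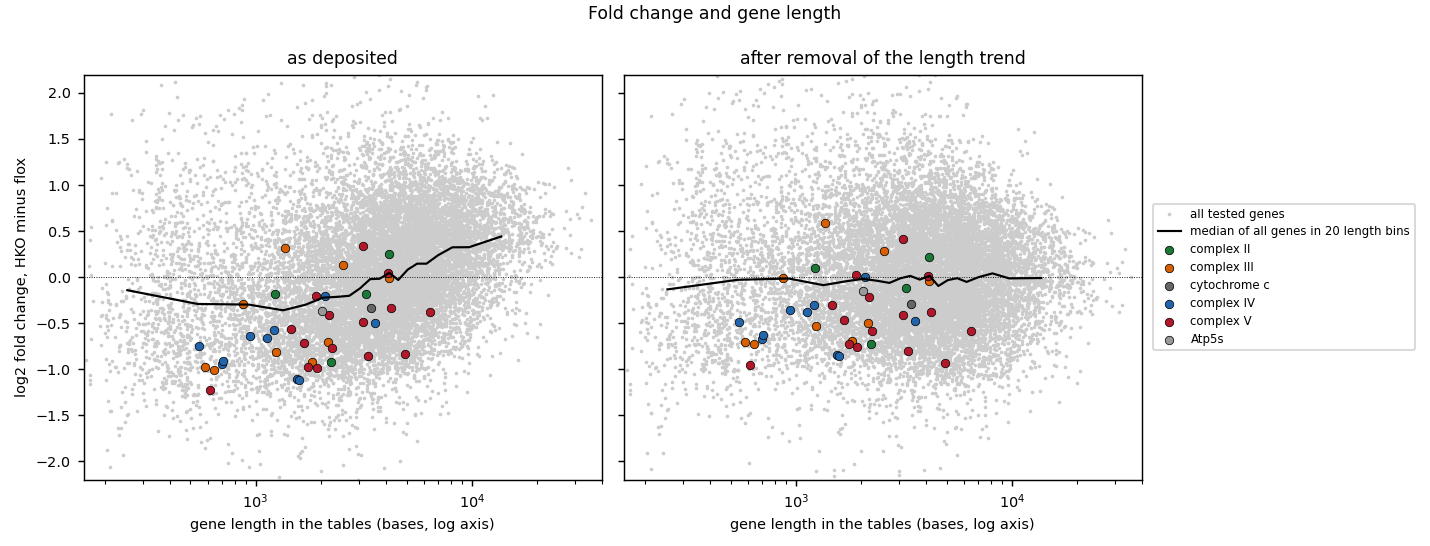
Log2 fold change (HKO minus flox) against gene length in bases (log axis), in the deposited values (left) and after removal of each library's length trend (right). Grey points are all tested genes, the black line is their median in 20 length bins, and coloured points are the 40 genes. The line dips and then climbs with length on the left and is near 0 on the right, and most coloured points lie below it in both panels. Genes beyond 2.2 in either direction, 77 on the left and 73 on the right, are outside the axis.

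Processing moved the median of complex II across 0 and left those of complexes III, IV and V below it. Under the 9 other treatments plotted, the median of complex II ran from -0.27 after median centring to 0.27 after quantile normalization. Complex IV stayed negative in all of them, from -0.90 without flox 3 to -0.18 after quantile normalization. Complex III ran from -0.87 to -0.18 and complex V from -0.65 to -0.19 over the same treatments. The median of all tested genes itself moved to 0.24 with total reads and to 0.15 with upper-quartile scaling, so values on those scales are to be read against it. Differences between complexes were not tested.

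**Figure D5:**
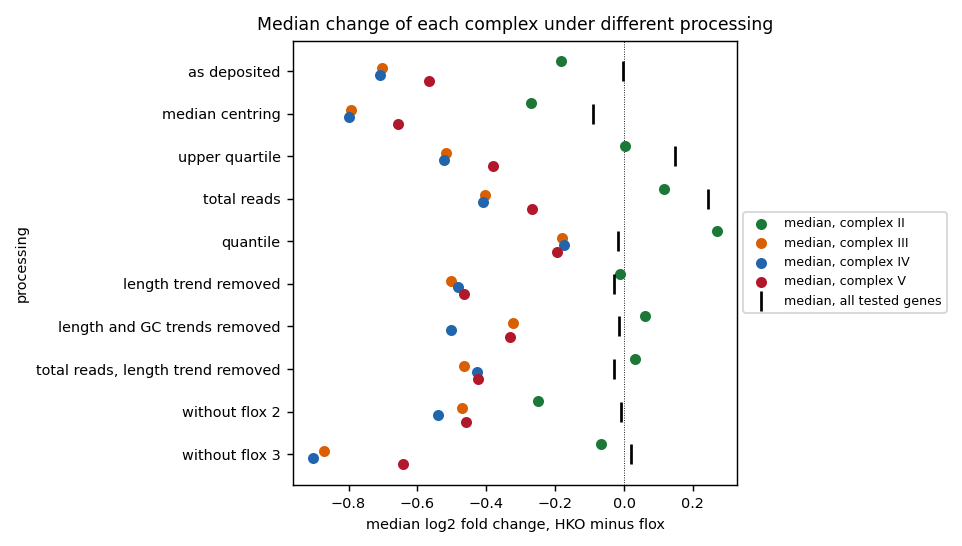
Median log2 fold change (HKO minus flox) of the genes of complexes II, III, IV and V under the deposited scaling and 9 other treatments. Each dot is the median of a complex, offset slightly in height for visibility, and the black tick is the median of all tested genes. Complexes III, IV and V lie left of 0 in every row, and complex II lies on either side.

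The 3′ untranslated regions, where HuR is known to bind AU-rich sequence, were short in these genes. In GENCODE M21 their median length was 195 bases, against 912 in 11544 tested genes with an annotated region. The pentamer ATTTA, searched on the transcript strand, occurred in 19 of the 40 (47.5%), against 64.3% of the tested genes. Per 1000 bases there were 2.28 pentamers in the 40 genes and 1.80 in the tested genes. The 19 genes with a pentamer had log2 fold changes with a median of -0.34 at a median GC of 50%, and the 21 without it -0.81 at 54.5%. This split was made after the values were seen and is a description.

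The mitochondrially encoded partners overlapped between the groups. The gene mt-Co1, the catalytic core of complex IV, was at 8299, 3538 and 13126 FPKM in flox and at 9772, 11923 and 12318 FPKM in HKO. Its flox 2 value was the lowest of the 6, where Cox4i1 was highest, and its log2 fold change was 0.63 (SE 0.49). The gene mt-Cytb, the mitochondrially encoded core of complex III, had a log2 fold change of -0.39 (SE 0.30). Of the 6 such genes tested, 0 passed in either direction, 5 were negative and 0 were lower without overlap. The means of mt-Co2, mt-Co3, mt-Atp6 and mt-Atp8 were 117, 47.3, 66.6 and 2.41 FPKM, against 9829 for mt-Co1 and 6648 for mt-Cytb. Why those rows are so much lower was not tested, and how reads with several matches were treated is not given. Counts over the 6 genes are thus uncertain. The ratio of Cox4i1 to mt-Co1 was 0.0493, 0.230 and 0.0232 in flox and 0.0223, 0.0177 and 0.0176 in HKO, with flox 3 just above HKO 1 (exact permutation p of 0.1). Cox4i1 has a GC content of 57.6% and mt-Co1 one of 39.9%, and the part of GC in this ratio was not tested.

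Among assembly factors, values went in both directions, and limma called 0 of them. Their difference from the subunits was not tested. Of 4 factors for complex II, 2 had negative fold changes, and the smallest p values were those of Sdhaf3 (0.58, SE 0.26, higher in HKO without overlap) and Sdhaf1 (-0.50, SE 0.28), which act in the maturation of the iron-sulfur subunit. Of 6 for complex III, 4 were negative, with Uqcc3 at -1.04 (SE 0.35) and Uqcc2 at -0.96 (SE 0.45), both needed for cytochrome b, while Ttc19 was higher without overlap at 0.41 (SE 0.23). Of the 25 tested for complex IV, 17 were negative, with Higd1a at -0.66 (SE 0.19) and Cmc1 at -0.62 (SE 0.18). In that list 6 were lower without overlap (16.7% of all) and 4 were higher without overlap (15.3% of all): Taco1 at 0.66 (SE 0.26), Sco1, Cox15 and Cox17. Ttc19 and these 4 were named after their values were seen. Of 6 for complex V, Tmem70, which helps to build the membrane ring, was at 22.2, 18.4 and 19.4 FPKM in flox and at 31.1, 28.1 and 29.4 FPKM in HKO. Tmem70 was also higher in HKO without overlap, with a log2 fold change of 0.55 (SE 0.19, adjusted p 0.209 by limma). Fmc1, also of that list, had a log2 fold change of -0.62 (SE 0.24). Among 6 tested further subunits and isoforms, Cox7a2l had -0.70 (SE 0.19), and Cox6b2, a testis form near the detection limit, -0.65 (SE 0.26).

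Of 13 tested regulators of respiratory genes, 10 had positive fold changes and 0 passed. Esrra, the nuclear receptor that binds the ERR motif, had the smallest p, at 30.1, 52.3 and 33.7 FPKM in flox and at 15.4, 20.5 and 17.3 FPKM in HKO. Its groups did not overlap, and its log2 fold change was -1.07 (SE 0.27, adjusted p 0.165 by limma). Polrmt, the mitochondrial RNA polymerase, had a log2 fold change of -0.62 (SE 0.27). Of 8 tested carriers and uncouplers, Ucp2, an inner-membrane carrier that macrophages also express strongly, was at 28.1, 47.7 and 23.1 FPKM in flox and at 14.8, 12.1 and 11.9 FPKM in HKO. Ucp2 thus differed by -1.26 on the log2 scale (SE 0.30, adjusted p 0.161 by limma), and the summed macrophage markers were higher in flox as well, a link that was not tested. Slc25a5, an ADP/ATP carrier, had a log2 fold change of -0.40 (SE 0.20).

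In other large assemblies most genes also had negative values, where 50.1% of all tested genes were negative and 16.7% were lower without overlap. Of 37 complex I subunits, 36 were negative and 32 were lower without overlap, with a median log2 fold change of -0.66. Of 83 tested cytosolic ribosomal protein genes, 81 were negative and 50 lower without overlap, with a median of -0.81. Of 76 mitochondrial ribosomal protein genes tested, 64 were negative and 12 positive, 25 were lower without overlap and 6 higher without overlap (15.3% of all), and the median was -0.42. After removal of the length trend these medians were -0.56, -0.62 and -0.32. Differences between these groups and the 40 genes were not tested.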

How the data were processed

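Livers of 6 mice, 3 per genotype label, were profiled by RNA sequencing of total RNA, per the labels' protocols. The authors deposited FPKM values in 1 table per group, with gene name, position, length and biotype, per the file headers. TopHat2, HTSeq 0.6.1 and GRCm38.p6 are named in the submitters' processing notes, with no settings, and strand use is not given in the sources used here. FPKM times length gave whole reads for 100% of values (tolerance 0.01 of a read). The reads are not known to be independent molecules, so intervals cover counting error only.

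Here log2(FPKM + 0.5) was fitted for the 13787 genes averaging 0.5 FPKM or more in limma 3.58.1 (R 4.3.3), with group as the term and variances moderated along a mean-variance trend. Tests were two-sided, with Benjamini-Hochberg adjusted p-values called at 0.05. Fold changes on that scale understate the change of low genes. Length and GC trends were removed per library by lowess (span 0.3) of each gene's deviation, with GC and overlaps from GENCODE M21, which matched the table's length for 38 of the 40 genes. Code was tested on simulated data. Values per library were given for the 3 genes of smallest p and the 2 of highest mean in each complex, and of other lists for the smallest p values. The genes and lists were chosen with earlier results of these data known. Each library is a separate mouse per the labels, no batch is named, and replicate numbers did not pair the libraries. Of 7 pseudogene rows with these names, left out by biotype, the highest mean was 2.19 FPKM. Figures used matplotlib 3.10.9.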

Additional observations from a re-analysis of the deposited data

How the results depend on the processing

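In all 26 alternatives the median log2 fold change of the 40 genes stayed negative, and 26 of the 40 genes were negative in each. It was -0.61 in the deposited values, -0.15 after quantile normalization, -0.42 with upper-quartile scaling and -0.44 with the length trend removed (also with the replicate block). Leaving out each library gave medians of -0.70 to -0.46. Alternatives chosen after seeing the data gave -0.31 (total reads), -0.39 (total reads and length), -0.37 (length, without flox 2) and -0.33 (length and GC, with or without the block). No member passed limma's adjusted threshold except without flox 3 (24, or 17 with the length trend removed, of which 16 were lower and 1 higher) or with library weights, which were 4.75 for flox 1, 0.172 for flox 2, 0.108 for flox 3 and 1.60 to 2.91 for HKO (28), so leaving out a library gave 0 to 24. Genes called over the whole table went from 2 to 7757 with library weights, of which 27.8% of tested genes were lower and 28.4% higher, 4598 without flox 3 and the length trend, 4 with length and GC removed, and 0 to 5575 on leaving out a library. A replicate block, alone or with length or GC, gave 1, and correlations of same-numbered libraries were -0.04, -0.09 and 0.07. Weights fitted by REML did not converge, so gene-by-gene weights were used. The causes were not tested, and no sample size beyond 3 a group was available.

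Log2 fold changes that changed sign, among them that of Elavl1 (0.67 in the deposited values), were as follows. Under quantile normalization these were Atp5b 0.15, Atp5c1 0.29, Atp5g3 0.14, Cox5a 0.17, Sdhc 0.22, Sdhd 0.32 and Uqcrb 0.21. Upper-quartile scaling gave Sdhc 0.0042, Sdhd 0.00090 and Uqcrc1 0.15. Median centring gave Atp5f1 -0.045, and library weights -0.0016. Removal of the length trend, with or without the block, gave Atp5c1 0.022, Cox5a 0.00096 and Sdhd 0.095. Without flox 3 as well it gave Atp5c1 0.22, Atp5g3 0.011, Atp5s 0.13, Cox5a 0.24, Sdhd 0.49 and Uqcrb 0.17, and without flox 2 Atp5f1 -0.20, Uqcrc1 0.24 and Uqcrc2 -0.0091. Total reads gave Atp5c1 0.095, Cox5a 0.092, Sdhc 0.12, Sdhd 0.11, Uqcrb 0.0018 and Uqcrc1 0.24, and with the length trend removed Atp5c1 0.062, Cox5a 0.038, Sdhd 0.14 and Uqcrb 0.045. Length and GC removal, with or without the block, gave Atp5f1 -0.32, Sdhc 0.10, Sdhd 0.025, Uqcrc1 0.32 and Elavl1 -0.024. On leaving out a library, Atp5a1 ranged from -0.0027 (without HKO 1) to 0.56, Atp5f1 from -0.20 to 0.25, Uqcrc2 from -0.10 to 0.35 and Uqcrfs1 from -0.043 to 0.66 (lowest without flox 2), Sdhd from -0.40 to 0.078 (without flox 3) and Uqcrc1 from -0.35 to 0.27.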
